A study of Homo sapiens with 11 samples.

Results

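The 6 genes described here were the 5 members of the NFAT family of transcription factors, NFATC1, NFATC2, NFATC3, NFATC4 and NFAT5, and RCAN1, a regulator of calcineurin. They were 6 of the 60605 features of the expression table, found by gene symbol, and each symbol matched a single row. The group was chosen by a measured value: NFATC2 was among the largest rises in cells carrying Oct4, Sox2 and Klf4 together. That contrast, OSK against GFP, is therefore given here as a description without a test, for all 6 genes.

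ARPE-19 is an established line of human retinal pigment epithelium (RPE). Stable ARPE-19 lines expressed an open reading frame for 4 days, and polyadenylated RNA was sequenced from 11 libraries: 3 from a line with GFP, a fluorescent protein used as the control, and 2 each from lines with Oct4, Sox2, Klf4 or all 3 factors (OSK). All groups share the parental line and the 4 days of expression, and the labels do not give the species of the open reading frames or the number of clones behind a line. Library names of every factor library carry the mark mC, which the labels do not explain and which the GFP libraries lack, so whatever it stands for cannot be told apart from the factors. The labels also do not say that replicates came from separate cultures, so p-values measure only the spread between these libraries. The series was designed to look at induction of oxidative effectors by the reprogramming factors, and the NFAT genes are a separate readout of the same libraries.

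NFAT proteins are transcription factors best known from T cells. A rise in cytosolic calcium activates calmodulin and then the phosphatase calcineurin, which strips phosphates from NFATC1 to NFATC4 and lets them enter the nucleus, where they bind a GGAAA core, often beside AP-1 (FOS and JUN) proteins. Kinases such as GSK3, CK1 and DYRK send them out again. NFAT5 lacks the calcineurin-docking region and answers to osmotic stress, while RCAN1 binds and restrains calcineurin and is itself an NFAT target, through a start site inside the gene, ahead of the fourth exon. Transcript levels, which are what was measured here, do not report where these proteins are in the cell or whether they are active.

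NFATC2 lies on chromosome 20 (chr20:51386957-51562831, minus strand) and RCAN1 on chromosome 21 (chr21:34513142-34615142, minus strand) in GRCh38. Their promoter sequences are shown because, of the single-factor lines, NFATC2 differed most from GFP with Klf4 and RCAN1 with Oct4, and because RCAN1 holds the classical NFAT-responsive start. The RefSeq promoter table (GRCh38.p14) had entries for 5 of the 6 genes, with 2 starts for NFATC2, 20.1 kb apart, and 6 for RCAN1, of which start 4 lies 88.3 kb inside start 1. The windows below are the 250 bases ahead of each start, 5′ to 3′ on the gene's strand. In the first, NFATC2 start 1 (chr20:51562840-51563089, minus strand), capitals mark GGAAA or its reverse complement TTTCC, the core bound by NFAT proteins. In the second, NFATC2 start 2 (chr20:51542720-51542969, minus strand), capitals mark GGGTG or its reverse complement CACCC, the core of KLF sites. In the last, RCAN1 start 4 (chr21:34526823-34527072, minus strand), capitals mark GGAAA or TTTCC and the AP-1 site TGAGTCA or its reverse complement TGACTCA.
NFATC2 start 1: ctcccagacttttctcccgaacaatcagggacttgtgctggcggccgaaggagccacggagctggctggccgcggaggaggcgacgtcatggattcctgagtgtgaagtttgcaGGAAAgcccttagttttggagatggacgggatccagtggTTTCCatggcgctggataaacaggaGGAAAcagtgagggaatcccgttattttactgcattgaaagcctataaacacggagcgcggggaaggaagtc
NFATC2 start 2: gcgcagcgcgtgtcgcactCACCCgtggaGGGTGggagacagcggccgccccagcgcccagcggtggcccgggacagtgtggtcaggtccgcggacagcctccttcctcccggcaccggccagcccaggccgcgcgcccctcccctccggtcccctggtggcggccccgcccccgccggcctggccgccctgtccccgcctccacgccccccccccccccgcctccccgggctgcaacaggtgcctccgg
RCAN1 start 4: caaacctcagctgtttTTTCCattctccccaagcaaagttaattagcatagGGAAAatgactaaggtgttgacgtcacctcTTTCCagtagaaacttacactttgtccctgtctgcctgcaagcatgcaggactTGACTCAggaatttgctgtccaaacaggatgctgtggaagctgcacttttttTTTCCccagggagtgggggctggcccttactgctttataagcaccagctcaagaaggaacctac
NFATC2 start 1 held 3 GGAAA cores, at 136, 97 and 72 bases before the start, and no GGGTG. NFATC2 start 2 held 2 GGGTG cores, at 231 and 221 bases, in a window of 80.8% GC, and no GGAAA. RCAN1 start 4 held 4 GGAAA cores, at 234, 199, 169 and 64 bases, and 1 AP-1 site at 116 bases, in a window of 46.8% GC. Matches were not limited to these windows: RCAN1 starts 2 and 3 also held 2 GGGTG each, NFATC3 start 1 and all 3 NFATC4 starts held 1 (the same match for NFATC4 starts 2 and 3, whose windows overlap), and GGAAA occurred 1 time in both NFATC1 windows and in NFATC4 start 1. Both strands were searched, and no match in the printed windows overlapped another. Among 35116 RefSeq windows of the same length, 55.6% held at least 1 GGAAA, 7.12% at least 3 and 1.87% at least 4. GGGTG occurred in 54.7% and at least 2 times in 23.1%, and TGAGTCA in 4.2%. The octamer ATGCAAAT of Oct4 (1.63% of windows) and the SOX core CATTGT (9.29%) were in none of the windows of the 5 genes. A match describes letters in a window, not an occupied site, and the gene-level values do not separate the starts.

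Values are normalised counts, for which the authors scaled the reads of each library by a single factor. Recovered reads ran from 15053300 to 19791775 per library. The delivered genes were highest in the lines labelled for them, OSK among these, with POU5F1 at 67074 ± 356 (SD, n = 2) in the Oct4 line, SOX2 at 29123 ± 24.4 (n = 2) in the Sox2 line and KLF4 at 23173 ± 1459 (n = 2) in the Klf4 line. GFP replicate 1 and OSK replicate 1 stood apart. They had reads for 42956 and 32493 features against 25853 to 26971 in the other 9 libraries, and for 67.7% and 23.0% of 405 olfactory receptor genes against 4.9% to 8.1%. The RPE markers (12 genes) summed to 35294 to 39085 in GFP and 18011 to 18477 in OSK, but RPE65, the visual-cycle isomerase, had at most 4.63 in any library.

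NFATC2, the NFAT member prominent in T cells, was scarce in control cells. Its 3 GFP libraries had 53.62, 19.22 and 27.22 normalised counts, its Oct4 libraries 85.93 and 84.7, and its Sox2 libraries 50.49 and 59.94. The Klf4 libraries had 1965.13 and 2381.23, and the OSK libraries 5742.09 and 5963.64. Both Klf4 libraries and both OSK libraries thus lay far above the other 7, and the OSK pair lay above the Klf4 pair. The number of reads behind these values ran from 19 in GFP replicate 2 to 5422 in OSK replicate 2. The gene passed the filter on low values in every library, not through its high groups alone.

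The Klf4 line alone had 65.2 times the GFP mean of NFATC2 (2173 ± 294, n = 2, against 33.4 ± 18.0, n = 3), a log2 change of 6.10 (SE 0.27, limma adjusted p = 1.42e-10), although the same GFP libraries also entered the contrast that selected the gene. It also exceeded the Oct4 line by 4.65 (SE 0.30, limma adjusted p = 3.41e-09) and the Sox2 line by 5.27 (SE 0.30, limma adjusted p = 7.3e-10) on the log2 scale. These differences of means use neither GFP nor OSK, but their SE and p rest on a spread estimated from all 11 libraries. In OSK the mean was 5853 ± 157 (n = 2), 175 times GFP and 2.69 times the Klf4 line, log2 differences of 7.54 and 1.44 that belong to the selection and carry no test. KLF4 itself had 24336 ± 189 (n = 2) in OSK, beside 23173 ± 1459 (n = 2) in the Klf4 line. Among rises in OSK, NFATC2 came after KLF4 (8.54), SOX2 (8.18) and UNC5B-AS1 (8.06) on the log2 scale, and the next below it were APLNR (6.31) and KCTD12 (6.29).

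The smaller NFATC2 differences were less firm, and they too are measured from the GFP libraries that entered the choice of the gene. The Oct4 line had 2.56 times the GFP mean (85.3 ± 0.87, n = 2, log2 change 1.46, SE 0.27, limma adjusted p = 0.000468), with both libraries above all GFP libraries. The Sox2 line (55.2 ± 6.68, n = 2) passed the threshold at a log2 change of 0.83 (SE 0.27, limma adjusted p = 0.0208), but its lower library lay below GFP replicate 1, so the groups overlapped. That call was lost with edgeR (adjusted p = 0.0519), with DESeq2 (adjusted p = 0.097) and with the replicate number as a block (limma adjusted p = 0.0675). It was also lost without GFP replicate 2 or GFP replicate 3 (limma adjusted p = 0.0769 and 0.0633). GFP replicate 1 was the highest control library. Without it the log2 change was 1.23 for Sox2, 1.85 for Oct4, 6.5 for Klf4 and 7.94 for OSK. In order, NFATC2 ran from OSK through Klf4, Oct4 and Sox2 to GFP, and the Sox2 and Oct4 lines did not pass the test of their difference (−0.62, SE 0.30, limma adjusted p = 0.123).

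Since NFATC2 is also a gene of lymphocytes, 11 lymphoid markers were read beside it. Their summed level was 318 in GFP replicate 1 and at most 67.2 in any other library. In both Klf4 libraries 8 of the 11 were at 0, among them the CD3 genes and PTPRC, and their sums were 18.3 and 26.6. The OSK libraries summed to 67.2 and 20.9, with PTPRC, CD3G, CD2 and MS4A1 at 0 in both. OSK replicate 1, with the larger sum, had 24.93 of LCK, 13.01 of CD4, 11.92 of CD79A and 9.76 of CD8A. GFP replicate 1 and OSK replicate 1, with the highest sums, also stood apart in olfactory receptor genes, with reads for 67.7% and 23.0% of them. The part of these markers in the NFATC2 values was not tested. In bulk RNA, more cells expressing a gene and more RNA per cell cannot be told apart.

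NFATC1, which is needed in osteoclasts and heart valves and has an autoregulated promoter, moved the other way. Its gene lies at chr18:79395856-79529325 on the plus strand. The GFP libraries had 175.77, 188.17 and 174 normalised counts, the Oct4 libraries 214.82 and 181.98, and the Sox2 libraries 162.68 and 123.3. The Klf4 libraries had 112.19 and 131.4, and the OSK libraries 69.38 and 83.59. Klf4 and OSK lay below every GFP library without overlap, as did Sox2, and Oct4 overlapped GFP. In the Klf4 line the mean of 122 ± 13.6 (n = 2) was below the GFP mean of 179 ± 7.72 (n = 3) by a log2 change of −0.56 (SE 0.16, limma adjusted p = 0.0142), a call lost without Klf4 replicate 1 (−0.44, limma adjusted p = 0.138). Neither Oct4 (0.14, SE 0.16, limma adjusted p = 0.535) nor Sox2 (−0.34, SE 0.16, limma adjusted p = 0.111) passed.

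The OSK mean of NFATC1 was 76.5 ± 10.0 (n = 2), a log2 difference from GFP of −1.22 that is given as a description. OSK was lower than the Oct4 line (−1.36, SE 0.18, limma adjusted p = 1.28e-05) and the Sox2 line (−0.89, SE 0.18, limma adjusted p = 0.000786). It was also lower than the Klf4 line (−0.67, SE 0.18, limma adjusted p = 0.0127), but that call was lost with DESeq2 (adjusted p = 0.0529), in a fit of these groups alone (limma adjusted p = 0.0534) and without Klf4 replicate 2 or OSK replicate 1 (limma adjusted p = 0.102 and 0.119). The Klf4 line was below the Oct4 line (−0.70, SE 0.18, limma adjusted p = 0.00459), a call lost without Oct4 replicate 1 or Klf4 replicate 1 (limma adjusted p = 0.0563 and 0.0502). In order of mean level, Oct4 was followed by GFP, Sox2, Klf4 and OSK, and of the neighbours in that order only Klf4 and OSK passed a test. The Sox2 line was below the Oct4 line at the edge of the threshold (−0.48, SE 0.18, limma adjusted p = 0.0492). That call was lost with DESeq2 (adjusted p = 0.134), without a filter (limma adjusted p = 0.107), with TMM scaling (limma adjusted p = 0.0589), and without Sox2 replicate 2 (−0.28, limma adjusted p = 0.369) or either Oct4 library (limma adjusted p = 0.265 and 0.0624).

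NFATC3, the NFAT member of thymocytes and smooth muscle, was much the same in all groups. The gene spans chr16:68084751-68229259 on the plus strand. Its GFP libraries had 450.84, 385.44 and 487.98 normalised counts, its Oct4 libraries 372.74 and 362.82, its Sox2 libraries 408.39 and 415.28, its Klf4 libraries 352.78 and 375.92, and its OSK libraries 358.81 and 414.66. All 11 libraries fell between 352.78 and 487.98. No comparison among the 9 tested passed the threshold for NFATC3, and the closest were Klf4 against GFP (−0.27, limma adjusted p = 0.0665) and Oct4 against GFP (−0.26, SE 0.11, limma adjusted p = 0.0754). Both passed when GFP replicate 2, the lowest GFP library, was left out (−0.36 and −0.35, limma adjusted p = 0.0173 and 0.0191). NFATC3 shares exon bases with AC020978.7 (1385 bases) and AC130462.1 (285) on its own strand, and with AC020978.5 (2796) and ESRP2 (149) on the other strand. Whether counting used strand is not given in the sources used here, so its values are uncertain to that extent. ESRP2 had at most 75.47 normalised counts in any library.

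NFATC4, the NFAT member described in heart and neurons, was highest in the Oct4 line. It lies at chr14:24365673-24379604 on the plus strand. The Oct4 libraries had 851.14 and 701.6 normalised counts, the Sox2 libraries 456.64 and 348.49, and the GFP libraries 266.13, 292.37 and 251.77. The Klf4 libraries had 172.34 and 234.24, and the OSK libraries 192.96 and 255.18. Both Oct4 libraries were above all others, both Sox2 libraries were above GFP, and OSK overlapped GFP and Klf4. The Oct4 mean of 776 ± 106 (n = 2) was 2.87 times the GFP mean of 270 ± 20.6 (n = 3), a log2 change of 1.52 (SE 0.16, limma adjusted p = 1.51e-06). The Sox2 mean of 403 ± 76.5 (n = 2) gave a log2 change of 0.56 (SE 0.16, limma adjusted p = 0.00937), which was lost without Sox2 replicate 1 (0.37, limma adjusted p = 0.178). The Klf4 change was −0.42 (SE 0.16, limma adjusted p = 0.0527).

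NFATC4 in OSK, with all 3 factors, averaged 224 ± 44.0 (n = 2), near the Klf4 mean of 203 ± 43.8 (n = 2). OSK was below the Oct4 line by −1.80 on the log2 scale (SE 0.17, limma adjusted p = 5.4e-07) and below the Sox2 line by −0.84 (SE 0.17, limma adjusted p = 0.00103). Against the Klf4 line the test was not passed (0.14, SE 0.17, limma adjusted p = 0.638). The Klf4 line was itself below the Oct4 line (−1.94, limma adjusted p = 1.86e-07) and the Sox2 line (−0.99, limma adjusted p = 0.00025), and the Sox2 line was below the Oct4 line (−0.95, limma adjusted p = 0.000471). The POU5F1 transcript in OSK (19281 ± 369, n = 2) was below that of the Oct4 line, and the part of that dose in any difference between OSK and Oct4 was not tested.

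NFAT5, the osmotic stress member, was the most abundant of the 5 NFAT genes per length in GFP cells. It lies at chr16:69565094-69704666 on the plus strand. The GFP libraries had 1772.57, 1814.89 and 1901.37 normalised counts, the Oct4 libraries 6266.88 and 6926.73, and the Sox2 libraries 4438.49 and 4420.79. The Klf4 libraries had 1758.09 and 1861.34, and the OSK libraries 3152.35 and 2965.32. Oct4, Sox2 and OSK each stood clear of GFP and of one another, and Klf4 overlapped GFP. NFAT5 was 3.61 times the GFP mean in the Oct4 line (6597 ± 467, n = 2, against 1830 ± 65.6, n = 3, log2 change 1.85, SE 0.07, limma adjusted p = 1.05e-11). It was 2.42 times GFP in the Sox2 line (4430 ± 12.5, n = 2, log2 change 1.28, limma adjusted p = 4.06e-10), whereas Klf4 gave a change of −0.02 (limma adjusted p = 0.886).

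The OSK level of NFAT5 (3059 ± 132, n = 2) lay between those of its single-factor lines. It was 1.67 times GFP as a description. OSK was below the Oct4 line (−1.11, SE 0.07, limma adjusted p = 7.57e-09) and the Sox2 line (−0.53, SE 0.07, limma adjusted p = 2.19e-05), and above the Klf4 line (0.76, SE 0.07, limma adjusted p = 1.48e-06). The Sox2 line was below the Oct4 line by −0.57 (limma adjusted p = 1.45e-05). The Klf4 line was below Oct4 by −1.86 (limma adjusted p = 1.68e-11) and below Sox2 by −1.29 (limma adjusted p = 8.67e-10). In the order Oct4, Sox2, OSK, GFP and Klf4, every neighbouring pair that was tested differed except GFP and Klf4. NFAT5 shares 1588 exon bases with the same-strand gene AC012321.1. How reads in shared exons were counted is not given in the sources used here, so its values are uncertain to that extent.

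RCAN1, the calcineurin regulator, was highest in the Oct4 line. Its GFP libraries had 206.55, 249.88 and 233.3 normalised counts, its Oct4 libraries 1020.68 and 948.82, and its Sox2 libraries 237.86 and 249.17. The Klf4 libraries had 275.28 and 237.67, and the OSK libraries 364.23 and 393.76. The Oct4 pair was above all other libraries, the OSK pair was above the other 7, and Sox2 and Klf4 overlapped GFP. The Oct4 mean of 985 ± 50.8 (n = 2) was 4.28 times the GFP mean of 230 ± 21.9 (n = 3), a log2 change of 2.10 (SE 0.11, limma adjusted p = 5.11e-10). Sox2 (0.09, limma adjusted p = 0.567) and Klf4 (0.16, limma adjusted p = 0.297) did not pass.

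In OSK, where NFATC2 was at its highest, RCAN1 averaged 379 ± 20.9 (n = 2), 1.65 times GFP as a description. It was below the Oct4 line by −1.38 on the log2 scale (SE 0.12, limma adjusted p = 1.47e-07), and above the Sox2 line by 0.64 (SE 0.12, limma adjusted p = 0.000448) and the Klf4 line by 0.56 (SE 0.12, limma adjusted p = 0.00256). Klf4 and Sox2 were both below Oct4 (−1.94 and −2.01, limma adjusted p = 2.33e-09 and 2.97e-09) and did not pass the test against each other (0.07, SE 0.12, limma adjusted p = 0.681). The Klf4 line had 65.2 times the GFP mean of NFATC2, and its RCAN1 libraries overlapped those of GFP. Whether NFATC2 acts on RCAN1 was not tested, and the gene-level values do not separate the 6 RCAN1 starts. Across the 11 libraries the correlation of NFATC2 with RCAN1 on the log2 scale was 0.04, as a description over groups that share a line and a design. It includes the OSK values by which NFATC2 was chosen.

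The pair of libraries that stood apart, GFP replicate 1 and OSK replicate 1, touched few of these results when both were left out, a setting chosen after seeing the data. For RCAN1 the Oct4 rise over GFP was then 2.02, for NFATC4 1.51 and for NFAT5 1.83, and the differences of OSK from Oct4 were −1.32, −1.59 and −1.15, each still past the threshold. For NFATC1 the Klf4 fall was −0.57 and OSK stayed below Oct4 (−1.23) and Sox2 (−0.75). The calls that ended were NFATC1 in OSK against Klf4 (−0.53, limma adjusted p = 0.122) and in Sox2 against Oct4 (−0.48, limma adjusted p = 0.0568). NFATC2 in Sox2 against Oct4 then passed, at −0.62 (limma adjusted p = 0.0164).

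**Figure D1:**
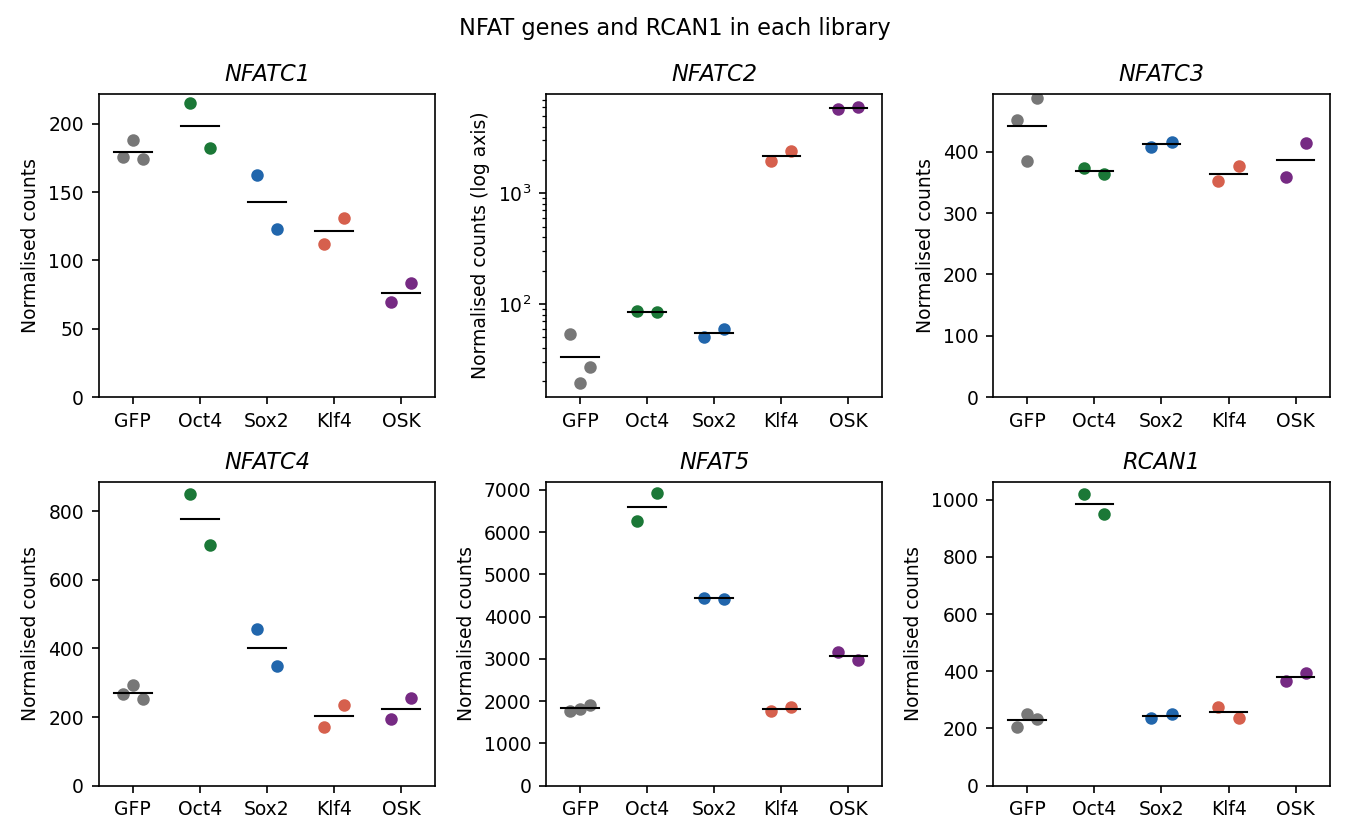
Normalised counts of each gene in the 11 libraries by group, with points for libraries and bars for group means; the NFATC2 axis is logarithmic and the others start at 0. NFATC2 stood at 1965.13 to 5963.64 in the Klf4 and OSK libraries and at 85.93 or less elsewhere, RCAN1, NFATC4 and NFAT5 were highest in the Oct4 libraries, and NFATC3 stayed between 352.78 and 487.98.

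The members' counts were read against the share of all genes called. The calls of NFATC2 against GFP use control libraries that also entered its choice. Against GFP, 4 of the 6 genes were called in the Oct4 line (NFATC2, NFATC4, NFAT5 and RCAN1, all higher), where 37.3% of 18828 tested genes were called. In the Sox2 line 3 of 6 were called, all higher, against 41.6% of all genes, and in the Klf4 line 2 of 6 (NFATC2 higher and NFATC1 lower) against 33.5%. In OSK the libraries of NFATC1, NFATC2, NFAT5 and RCAN1 did not overlap those of GFP, in the contrast used for the choice. Among all tested genes 58.5% had OSK and GFP libraries that did not overlap, and 39.7% were called by the test. These shares of all genes are large, so a call alone sets none of the 6 genes apart, and the sizes of the changes carry the description.

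Between lines, and leaving NFATC2 out where OSK is compared, 4 of 5 genes were called for OSK against Oct4, all lower, beside 40.3% of all genes. For OSK against Sox2 4 of 5 were called (RCAN1 higher and the others lower) beside 40.5%, and for OSK against Klf4 3 of 5 (NFATC1 lower, NFAT5 and RCAN1 higher) beside 21.5%. For Klf4 against Oct4 5 of 6 were called, NFATC2 higher and NFATC1, NFATC4, NFAT5 and RCAN1 lower, beside 41.7%. For Klf4 against Sox2 3 of 6 were called (NFATC2 higher, NFATC4 and NFAT5 lower) beside 40.8%, and for Sox2 against Oct4 4 of 6, all lower, beside 33.4%. The median log2 change of all tested genes was between −0.02 and 0.03 in every one of the 10 comparisons.

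**Figure D2:**
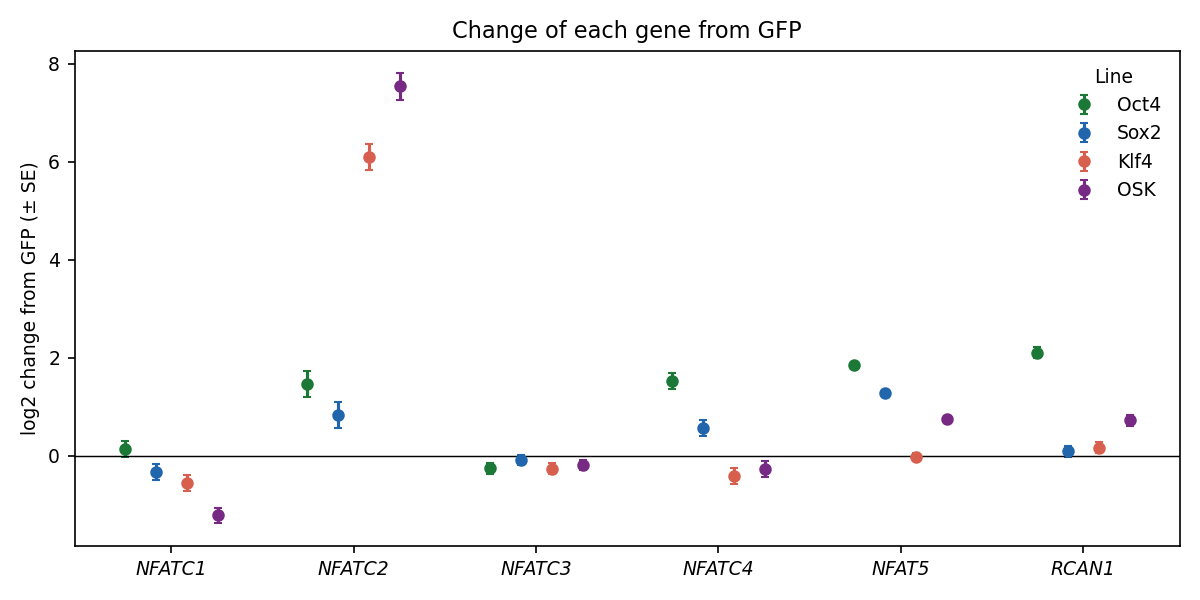
Log2 change from GFP (points) with its standard error (bars) for each gene in the 4 factor lines, on the scale of log2(normalised count + 1). NFATC2 reached 6.10 in the Klf4 line and 7.54 in OSK, while the largest change in the Oct4 line was that of RCAN1 at 2.10.

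Which NFAT transcript dominated differed by line. Per kilobase of exon, GFP cells had 50.1 ± 5.9 normalised counts of NFATC3, 32.0 ± 2.44 of NFATC4, 19.8 ± 0.851 of NFATC1 and 4.03 ± 2.17 of NFATC2 (n = 3). The summed level of the 4 calcium-regulated genes, NFATC1 to NFATC4, was 106 ± 4.36 per kilobase in GFP (n = 3), 166 ± 15.6 in Oct4, 117 ± 11.3 in Sox2, 341 ± 43.8 in Klf4 and 785 ± 29.7 in OSK (n = 2 each). NFATC3 held the largest share in GFP, with 47.2% ± 4.15 (SD, n = 3), and NFATC4 in Oct4, with 55.3% ± 2.19 (n = 2). In the Sox2 line NFATC3 (40.2% ± 4.17, n = 2) and NFATC4 (40.6% ± 4.03, n = 2) had shares that overlapped. NFATC3 shares exon bases with other genes, and how such reads were counted is not given, so its shares are uncertain to that extent.

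NFATC2 made up most of the sum in the lines given Klf4, alone or with the other factors. Its share was 3.77% ± 1.94 in GFP (n = 3), 6.23% ± 0.537 in Oct4 and 5.75% ± 1.22 in Sox2, but 76.8% ± 0.495 in Klf4 and 90.0% ± 0.99 in OSK (n = 2 each). The OSK share belongs to the contrast used for the choice. In absolute terms NFATC2 in OSK reached 706 ± 18.9 per kilobase (n = 2), above NFAT5 in the same cells (187 ± 8.06, n = 2). NFAT5, which is not part of that sum, had 112 ± 4.0 per kilobase in GFP (n = 3) and 402 ± 28.4 in Oct4 (n = 2).

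**Figure D3:**
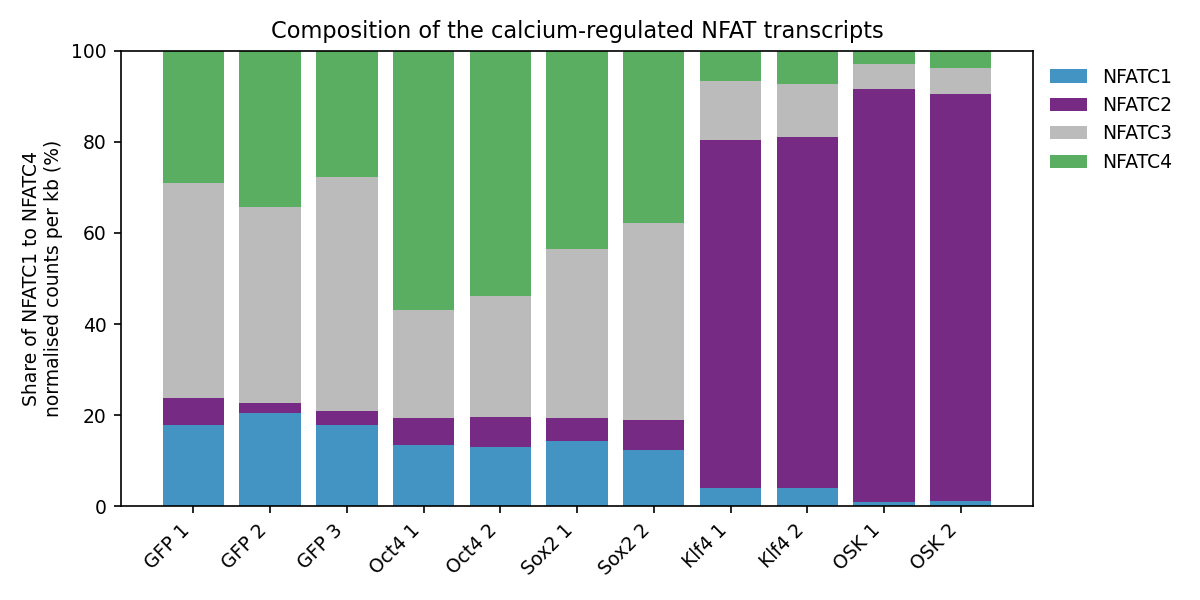
Share of each gene in the summed normalised counts per kilobase of NFATC1 to NFATC4, in percent, 1 stacked bar per library. NFATC2 took 76.5% and 77.2% in the 2 Klf4 libraries and 89.3% and 90.7% in the 2 OSK libraries, against 2.29% to 6.62% in the others.

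The genes whose pattern was most like each member were found by Pearson correlation of log2 values over the 11 libraries, which mostly reflects group means. For NFATC2 they were CPNE8 (r = 0.99), KLF4 (0.987), CASP9 (0.987), FBXO27 (0.986) and CDC25B (0.986). CPNE8 rose far less than NFATC2, from a mean of 88.4 normalised counts in GFP to 282 in Klf4 and 386 in OSK. CASP9, the initiator caspase, went from 268 to 1028 and 1699. For RCAN1 they were the SRC-family kinase LYN (r = 0.989), FAM199X (0.987) and FLYWCH2 (0.985), and LYN averaged 2321 in the Oct4 line against 294 in GFP. For NFATC1 they were the desmosomal cadherin DSC2 (0.971), APBB2 (0.965) and TP53I11 (0.962), and for NFATC4 the kinesin subunit KIF3A (0.979), BEND7 (0.979) and MTA3 (0.976). Within the 6 genes the closest pair was NFATC4 with NFAT5 (r = 0.84), followed by NFAT5 with RCAN1 (0.77), and NFATC1 with NFATC2 was −0.85.

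The genes that pass the calcium signal to NFAT were read from lists written with earlier results of these data known. As a background for their counts, 20.1% of all tested genes were higher and 17.2% lower in Oct4, 21.7% and 19.9% in Sox2, 17.6% and 16.0% in Klf4, and 19.7% in OSK, where 3759 of 18828 genes were lower. Of 4 calcineurin subunit genes tested, 3 rose and 1 fell in Oct4 and all 4 rose in Sox2, with median log2 changes of 0.41 and 0.72. PPP3CA, the main catalytic subunit, was 2372 ± 95.5 in the Sox2 line (n = 2) against 1147 ± 41.7 in GFP (n = 3, log2 change 1.05, limma adjusted p = 7.09e-09), and 847 in cells with Oct4 (log2 change −0.44, SE 0.07, limma adjusted p = 0.000124). PPP3CC, another catalytic subunit, rose by 1.06 in Oct4 (limma adjusted p = 1.66e-05) and 0.83 in Sox2 (limma adjusted p = 0.000144). For Klf4 and for OSK only PPP3CA was called among the 4, at 0.23 (limma adjusted p = 0.0179) and 0.64 (limma adjusted p = 2.3e-06). Without GFP replicate 1 and OSK replicate 1 the Oct4 count was 2 higher and 1 lower, as PPP3R1 was no longer called (0.21, limma adjusted p = 0.0871), and the Klf4 count was 2 higher.

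Among other calcineurin regulators, RCAN2 and RCAN3, the relatives of RCAN1, fell in OSK. Of 9 tested, 4 rose and 1 fell in Oct4, and 3 rose and 2 fell in Sox2. In Klf4 2 rose and 3 fell and in OSK 1 rose and 3 fell, with medians from −0.15 to 0.05. The list also held scaffolds and the genes FKBP1A and PPIA, so the counts are not of regulators alone. In Sox2 FKBP1A (0.34) was among the rises and PPIA (−0.38) among the falls. RCAN3 was higher in Oct4 (0.78, limma adjusted p = 0.00152) and Sox2 (0.59), and lower in Klf4 (−0.47, limma adjusted p = 0.0402, or 0.072 without GFP replicate 1 and OSK replicate 1) and OSK (59.6 ± 9.1, n = 2, against 117 ± 9.37, n = 3; −0.96, limma adjusted p = 0.000215). RCAN2 was low throughout, with 14.8 ± 4.01 in GFP (n = 3) and 3.27 ± 1.51 in OSK (n = 2; −1.91, limma adjusted p = 0.019). CHP1, a calcineurin-like protein that inhibits the phosphatase, rose in Oct4 (0.92), Klf4 (0.78) and OSK (1.33, limma adjusted p = 5.1e-10). MYOZ2, which tethers calcineurin in muscle, fell in all 4 lines, from 207 ± 54.9 in GFP (n = 3) to 3.29 ± 1.58 in OSK (n = 2; −5.62, limma adjusted p = 2.14e-09). MYOZ2 was among the results already seen when the list was written, so its p is a description.

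Upstream, the calcium channel genes changed in different directions. Genes for calcium entry, release and calmodulin were read as a single list that also held phospholipase C genes and calcium pumps. Of its 17 genes tested, 4 rose and 4 fell in Oct4, 5 and 3 in Sox2, 7 and 4 in Klf4, and 8 and 4 in OSK. Medians were 0.0, 0.03, 0.11 and 0.22. These counts are therefore not of entry and release alone. The pump gene ATP2B1 was among the OSK rises (0.96). Another pump gene, ATP2B4 (−0.47), and the phospholipase gene PLCG2 (−1.29) were among the Oct4 falls. Without GFP replicate 1 and OSK replicate 1 the falls were 6 in Oct4, 5 in Sox2 and 2 in OSK. ITPR1, an endoplasmic reticulum calcium release channel, went from 1149 ± 81.5 in GFP (n = 3) to 6613 ± 1063 in Oct4 (n = 2, log2 change 2.52, limma adjusted p = 5.58e-11) and 7991 ± 1110 in OSK (n = 2; 2.79, limma adjusted p = 2.05e-11). ITPR1 fell in Sox2 (−0.37, limma adjusted p = 0.0103). ITPR3, its relative, rose in Klf4 to 7123 ± 45.9 (n = 2) from 1839 ± 277 (n = 3; 1.96, limma adjusted p = 8.67e-10) and in OSK by 0.64 (0.40 without GFP replicate 1 and OSK replicate 1). Of the plasma membrane channels that refill stores, ORAI1 rose in OSK (0.96, limma adjusted p = 1.1e-06) while ORAI2 fell in Klf4 (−1.11) and OSK (−1.37, limma adjusted p = 7.15e-09) and rose in Sox2 (0.62, limma adjusted p = 3.43e-05).

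Genes for NFAT kinases, scaffolds and other NFAT partners were read as a single list, and not all of them hold NFAT in the cytoplasm. Of its 14 genes tested, 5 rose and 2 fell in Oct4, 4 and 3 in Sox2, and 5 and 2 in Klf4. In OSK 3 rose and 5 fell (2 and 3 without GFP replicate 1 and OSK replicate 1). Medians ran from −0.05 to 0.1. KPNB1 (0.55) and NFATC2IP (0.24), neither a kinase, were among the Oct4 rises, and NFATC2IP (0.61) among those in OSK. HOMER3, a scaffold that competes with calcineurin for NFAT, rose in Klf4 to 3405 ± 224 (n = 2) from 1307 ± 36.6 (n = 3, log2 change 1.38, limma adjusted p = 1.36e-07). It fell in Oct4 (−1.25), Sox2 (−1.3) and OSK (−0.45, limma adjusted p = 0.00479). DYRK2, an NFAT kinase, rose in Oct4 (0.4) and fell in Sox2 (−0.3), Klf4 (−0.35) and OSK (−0.42, limma adjusted p = 0.00188).

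AP-1 and MEF2 proteins bind beside NFAT. Of 13 of their genes tested, 5 rose and 6 fell in Oct4, 2 and 6 in Sox2, 4 and 6 in Klf4, and 4 and 8 in OSK, with medians of 0.27, −0.35, −0.87 and −0.57. In all, 37.3%, 41.6%, 33.5% and 39.7% of tested genes were called in these comparisons. FOSL2 rose in all 4 lines, in Klf4 to its highest mean (12521 ± 124, n = 2, against 4617 ± 537, n = 3, log2 change 1.45, limma adjusted p = 2.56e-09). JUNB rose in Klf4 (1.91, limma adjusted p = 1.39e-08) and OSK (0.81) and fell in Sox2 (−0.35, limma adjusted p = 0.0366). JUN fell in all 4 lines, by log2 changes of −1.08 in Oct4, −0.89 in Sox2, −1.40 in Klf4 and −2.13 in OSK, from 3747 ± 514 in GFP (n = 3) to 852 ± 125 in OSK (n = 2, limma adjusted p = 5.63e-10). FOS also fell in all 4, by −2.55 in Oct4 (limma adjusted p = 3.88e-09), −1.82 in Sox2, −1.31 in Klf4 and −0.89 in OSK (limma adjusted p = 0.000267). FOS-family genes were among the results already seen when the list was written.

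Of 30 reported NFAT targets listed, 16 passed the filter on low values. IL2, IFNG, CSF2 and CD40LG, the T cell cytokine and ligand genes, were at 0 in every library. Of the 16, 2 rose and 7 fell in Oct4, 2 and 5 in Sox2, 3 and 5 in Klf4, and 6 and 4 in OSK, with medians of −0.31, −0.33, −0.11 and 0.20. The 3 rises in Klf4 are near the share of all genes that rose there, 17.6%. In OSK the 6 rises stood beside 19.7% of all genes, and in Oct4 the 7 falls beside 17.2%, differences that were not tested. Without GFP replicate 1 and OSK replicate 1 the rises were 3, 4, 4 and 5. The rises did not share a pattern over the lines. CCND1 rose in all 4, most in Sox2 (2.05, limma adjusted p = 9.2e-10) and by 1.26 in Klf4 (limma adjusted p = 4.41e-07). NR4A1 rose in Klf4 (0.87) and OSK (1.48) and fell in Oct4 (−0.74). EGR2 rose in Sox2 (3.35, limma adjusted p = 5.52e-06) and fell in Klf4 (−1.79). F3, the tissue factor gene, had 4051 ± 194 in GFP (n = 3), 6923 ± 48.4 in Klf4 (n = 2, log2 change 0.77, limma adjusted p = 3.13e-07) and 17219 ± 968 in OSK (n = 2; 2.09, limma adjusted p = 4.09e-12), and it fell in Oct4 (−0.62, limma adjusted p = 2.69e-06) and Sox2 (−0.53, limma adjusted p = 1.15e-05). CTSK, the osteoclast protease cathepsin K and a target of NFATC1, fell in all 4 lines, from 2840 ± 134 in GFP (n = 3) to 554 ± 65.4 in Sox2 (n = 2; −2.36) and 1560 ± 89.0 in OSK (n = 2; −0.86).

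NFAT5 drives genes that gather osmolytes and protect proteins in salt stress. Of 12 such targets tested, 2 rose and 6 fell in Oct4, 2 and 2 in Sox2, 2 and 0 in Klf4, and 6 and 0 in OSK, with medians of −0.35, −0.23, 0.05 and 0.26. The 2 rises in Oct4, where NFAT5 was highest, are near the share of all genes that rose there, 20.1%. They were SLC6A12 (3.91, limma adjusted p = 0.00348, at most 22.84 in GFP but 75.48 and 112.16 in Oct4) and BPGM (0.9, limma adjusted p = 5.39e-05). The 6 falls in Oct4 stood beside 17.2% of all genes, and the 6 rises in OSK beside 19.7%. Without GFP replicate 1 and OSK replicate 1 the OSK rises were 5. Differences from these shares were not tested. SLC5A3, the myo-inositol transporter, fell from 6417 ± 2115 in GFP (n = 3) to 3163 ± 533 in Oct4 (n = 2, log2 change −0.98, limma adjusted p = 0.00211) and 2645 ± 661 in Sox2 (n = 2; −1.25). HSPA1B, a heat shock protein gene, fell in Oct4 (−0.91, limma adjusted p = 9.34e-08) and Sox2 (−0.64, limma adjusted p = 3.46e-06). AKR1B1, the aldose reductase that makes sorbitol, rose in OSK (0.81, limma adjusted p = 0.000691, and 1.23 without GFP replicate 1 and OSK replicate 1). It too was among the results already seen.

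**Figure D4:**
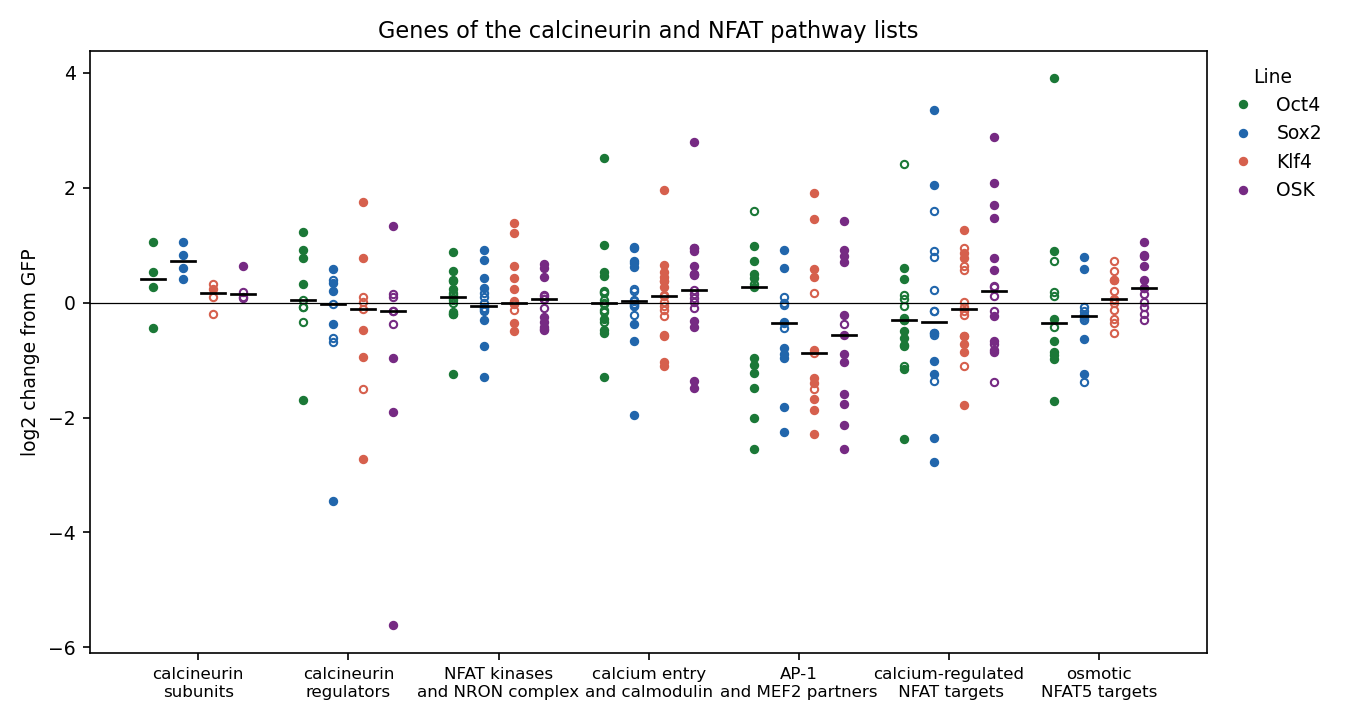
Log2 change from GFP of each tested gene (points; filled where the limma adjusted p was under 0.05) in 7 pathway lists, by line, with short bars for list medians. ITPR1 in Oct4 and OSK (2.52 and 2.79) and MYOZ2 in OSK (−5.62) stood far from their lists' medians. MYOZ2 was among the results already seen when the lists were written.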

How the data were processed

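Per the labels, RNA was extracted with TRIzol, enriched for polyadenylated transcripts and made into libraries with the NEBNext Ultra II RNA kit. The submitters' processing notes name STAR 2.7.1a, featureCounts 1.6.2 and human (GRCh38, hg38) and mouse (GRCm38, mm10) builds, without saying which did what. Use of strand, the annotation and the scaling are not given in the sources used here. The deposited numbers are a signal on the scale of normalised counts. Judged by the values, the authors scaled the reads of each library by 1 factor and rounded to 2 decimals, since numbers up to 200 were multiples of 1 step within 0.0061, and reads could be recovered.

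Because the unit was normalised counts, limma 3.58.1 (with trend, in R 4.3.3) was used on log2(value + 1), a scale that understates changes of low values. The filter kept 18828 genes that reached 10 in 2 or more libraries. All 11 libraries entered 1 fit (6 residual and 9.21 prior degrees of freedom), so groups of 2 share the estimate of spread. P-values were Benjamini-Hochberg adjusted over all tested genes, with a threshold of 0.05. Alternatives were edgeR 4.0.16 and DESeq2 1.42.0 on recovered reads, pseudocounts of 0.5 and 5, no filter, a mean of at least 20, TMM scaling, only the compared groups, a replicate block and leaving out each library. Leaving out GFP replicate 1 and OSK replicate 1 together was added after the data were seen. The procedure was tested on simulated data.

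Gene positions and exon lengths came from GENCODE release 29 (GRCh38), and promoter windows from RefSeq (GRCh38.p14). The named genes were the 6 members, up to 3 rises and 3 falls per list and comparison that passed the threshold with libraries that did not overlap, all calcineurin subunits and regulators, the 5 genes most correlated with NFATC2 and the 3 most correlated with RCAN1, NFATC1 and NFATC4, and the 3 factor genes. IL2, IFNG, CSF2, CD40LG, RPE65, KRT8 and the lymphoid markers were named after their values were seen. Members and lists were chosen with earlier results of these data known. MYOZ2, AKR1B1 and FOS-family genes were among those results, so their p-values are given as a description. Intervals and tests cover these libraries only.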

Additional observations from a re-analysis of the deposited data

How the results depend on the processing

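The NFATC2 difference between the Klf4 line and GFP kept its call under all 15 alternatives, between 5.78 and 6.5 on the log2 scale, as did Oct4 against GFP for NFATC2 (1.14 to 1.85), NFATC4 (1.38 to 1.66), NFAT5 (1.78 to 1.92) and RCAN1 (2.02 to 2.16), and Sox2 against GFP for NFAT5 (1.25 to 1.3). The NFATC2 comparisons with GFP use control libraries that also entered the choice of that gene. NFATC2 in Sox2 against GFP was less firm. It no longer passed at 0.83 without a filter, at 0.83 with only the compared groups, at 0.75 with the replicate block, at 0.75 with edgeR and at 0.73 with DESeq2. The call was also lost without GFP replicate 2 (0.51) or GFP replicate 3 (0.75). Without Sox2 replicate 1 or 2 the change was 0.95 or 0.71. When 1 library was left out it ran from 0.51 to 1.23. NFATC4 in Klf4 against GFP, not called, passed at −0.42 with the filter on a mean of at least 20 and at −0.64 without Klf4 replicate 2. Leaving out 1 library put Klf4 against GFP between −0.67 and −0.44 for NFATC1 (−0.56 with all libraries) and between −0.36 and −0.19 for NFATC3 (−0.27). For NFATC4 it lay between −0.64 and −0.2 (−0.42). The same put NFATC3 in Oct4 against GFP between −0.35 and −0.18 (−0.26) and NFATC4 in Sox2 against GFP between 0.37 and 0.76 (0.56). The genes called for OSK against Klf4 fell from 4049 to between 2519 and 3226 of those tested.

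Changes of sign occurred only in values near 0 that were never called. NFAT5 in Klf4 against GFP was 0.01 with the replicate block and −0.06 to 0.03 without 1 library. Without 1 library, NFATC3 ran from −0.04 to 0.17 in OSK against Oct4, from −0.2 to 0.01 in OSK against Sox2 (0.01 without both libraries that stood apart), from −0.02 to 0.19 in OSK against Klf4 and from −0.06 to 0.03 in Klf4 against Oct4. NFATC4 ran from −0.08 to 0.36 in OSK against Klf4 and RCAN1 from −0.03 to 0.18 in Klf4 against Sox2. The causes were not tested. The replicate numbers do not pair the samples: same-numbered libraries correlated between −0.0693 and 0.0418 in their deviations from the group means, except GFP with OSK (0.435 and 0.31), so the paired fit is an alternative only. GFP replicate 3 has no partner and drops out of it.

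With 2 libraries per factor line, small differences such as those of NFATC3 could not be resolved. A left-out library leaves a group with 1, which is then assumed to vary like the others. NFATC2 rests on 19 to 54 reads in GFP libraries, so counting error weighs on its folds over GFP.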
